A study of Trichosurus vulpecula with 116 samples.

Results

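Vulpeculin (LOC118842298) and ganderin (LOC118843263) are 2 of the 23816 genes measured by RNA sequencing in 116 tissue libraries of the brushtail possum, a marsupial. Both were taken up because the study singled them out among the genes that ran opposite to its weaning signature and remarked on their levels in males, and because earlier results of these data showed them varying together, so their rise from pouch young to adult, their difference between the sexes and their covariation are described with that choice in mind. The pair was then followed animal by animal: how the genes varied together among adults within each library kit, whether the month of collection mattered, which other genes varied with them, when they appeared in juveniles, and whether any tissue other than liver held them.

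The animals came from sites around Dunedin in southern New Zealand and were untreated, either killed in pest control or captive, so adults differ in age, site and season, and their ages were not given in the sources used here. Adult livers came from 29 males (7 NEXTFLEX and 22 NEBNext libraries) and 15 females (8 and 7), each from a different animal. There were a further 7 juvenile livers from young too old to be staged in days, 32 staged pouch young livers, the youngest labelled as under 2 and the oldest 109 days postpartum (dpp), 9 pouch young kidneys, 8 pouch young brains, 10 other tissues of Sandy (a male pouch young of 22 dpp), and the tongues of the adult female Puku and the juvenile female Sheila. Reads on genes ranged from 308137 to 115914850 per library with a median of 20205476, and in adult livers from 4.91 M to 115.9 M (M for mega-reads).

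Lipocalins are small secreted proteins with a barrel-shaped pocket that binds hydrophobic molecules such as odorants, steroids and retinoids. The best known members in the rodent liver, the major urinary proteins, are made by hepatocytes, pass through the blood into the urine and there carry and slowly release volatile signals, and their synthesis in mice is controlled by growth hormone and sex steroids. Vulpeculin is the possum lipocalin known as an abundant protein of urine, and ganderin is the name the study gave to its close relative.

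The genes lie side by side on chromosome 3 of the mTriVul1.pri assembly, ganderin at positions 173670196 to 173677008 on the minus strand and vulpeculin at positions 173712002 to 173722644 on the plus strand. Both are annotated as protein-coding and stand in a cluster of 14 lipocalin genes, of which 12 are in the table. The other 10 were at or near 0. LCN9, LOC118842295, LOC118841424 and LOC118842300 had no read in any library, and LOC118842296 had at most 1. LOC118844008, the next gene downstream of vulpeculin, had reads in 18 of 29 adult males with at most 40, and LOC118842299 in 7 males with at most 23. Both reached their highest count, not scaled for depth, in the male with the highest vulpeculin. Neither was confined to males. LOC118844008 also had reads in 2 adult females (at most 15), 4 juvenile livers, 9 pouch young livers, 2 kidneys and 3 brains, and LOC118842299 in 1 adult female (7 reads). LOC118841385 had reads in 10 pouch young livers, at most 53, and in 1 juvenile liver, LOC118841226 reached 9 reads in a brain and LOC118841314 reached 35 reads in Sandy's stomach. Only uniquely mapped reads were counted, and whether near-identical copies took reads from either gene was not tested.

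Both genes were high in the liver of every adult male. Vulpeculin ranged in the 29 males from 8.64 to 13.15 with a median of 11.72 on the deposited log2 scale (log2 CPM, reads of the gene scaled to a common library total, not divided by gene length), and averaged 11.50 ± 1.03 (SD, n = 29). Ganderin ranged in the same males from 5.63 to 9.71 with a median of 8.04, and averaged 8.03 ± 0.92. Levels are compared here between animals for each gene, not between the genes. The lowest vulpeculin among males was in the Ravensbourne male of July and the lowest ganderin in the Becks male of June, while the highest vulpeculin was in a NEXTFLEX male from Woodside Glen of March.

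In the highest male, vulpeculin took 0.958% of all reads on genes. Values in CPM without log2 are relative to the reads on genes. Between the lowest and the highest male, vulpeculin differed 22.7-fold and ganderin 16.9-fold. The SD over males, 1.03 for vulpeculin and 0.92 for ganderin, compared with a median SD of 0.51 across the 13953 genes read in 40 or more of the 44 adult livers. Of the 5223 such genes with a mean of at least 4 in males, 170 varied more than vulpeculin and 250 more than ganderin.

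Females were lower, and vulpeculin varied more among them than among males. Vulpeculin ranged in the 15 females from -4.14 to 10.71 with a median of 8.31, and ganderin from -4.14 to 6.83 with a median of 5.25. The value of -4.14 is how a library without a single read of the gene is written, and both belong to the same animal, a NEXTFLEX female from Woodside Glen of March. Without this animal, the 14 other females held vulpeculin at 4.75 to 10.71 (8.07 ± 1.66, SD) and ganderin at 3.40 to 6.83. The ranges were 62.2-fold and 10.8-fold. Over these 14 females the SD of ganderin was 1.17, against a median SD of 0.65 across the 13953 genes. Of the 5255 such genes with a mean of at least 4 in them, 46 varied more than vulpeculin and 173 more than ganderin. In males ganderin had a smaller SD, 0.92, but a wider range, 16.9-fold.

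The female without reads had 15.2 M reads on genes, in which 3 reads would stand for 0.197 CPM. Taking that limit for her, vulpeculin was at least 145-fold lower than in the next-lowest female and at least 2056-fold lower than the median of the other females, and ganderin at least 56.9-fold and 229-fold lower. The summed level of 8 hepatocyte markers, which are abundant products of liver parenchyma such as fibrinogen and apolipoproteins, was 44739 CPM in her liver against 30639 to 55432 CPM in the 14 other females. Her alpha-fetoprotein was 5.97 log2 CPM, against at most 6.13 in the others.

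The sexes overlapped. Of the 29 males, 6 lay below the highest female for vulpeculin and 3 for ganderin, and of the 15 females, 7 and 6 lay above the lowest male. In the NEXTFLEX libraries the sexes did not overlap at all for either gene, which held for 16 of 17849 genes tested (0.0896%) in that direction. In the NEBNext libraries 5 of 22 males lay below the highest female for vulpeculin and 2 for ganderin, and the 2 lowest males of either gene came from Ravensbourne and Becks. As a check of the labelled sexes, 4 of the genes that the study placed on the Y chromosome had in sum 6 to 311 reads in each male and none in any female. Of the others it placed there, LOC118833356 had reads in all 29 males and no female, and UBA1 in all 29 males and 5 females. LOC118833336, on the same scaffold as LOC118833342 of the 4 and named after its values were seen, had reads in all 29 males and 12 females.

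Vulpeculin was higher in adult males by 4.25 on the log2 scale (SE 0.68, limma adjusted p = 9.38e-05, n = 29 and 15) and ganderin by 3.60 (SE 0.52, adjusted p = 1.365e-05). Over all 17849 genes tested, 40 passed an adjusted p under 0.05 with a log2 difference of at least 1 (0.224%), 22 higher in males (0.123%) and 18 lower (0.101%), and the median difference was -0.05. With kit as a covariate 31 were called, 21 higher and 10 lower. Without the female that had no reads, the differences were 3.43 and 2.98 and both were still called. Since the study commented on the sex difference of these genes, the test is not independent of the choice. Within the NEBNext libraries the differences were 2.68 (adjusted p = 0.00313) and 2.58 (adjusted p = 0.00116), and within the NEXTFLEX libraries, where the animal without reads lies, they were 5.94 (SE 1.57, adjusted p = 0.472) and 4.53 (SE 1.18, adjusted p = 0.443) and were not called. The difference between kits was not called either, at 3.25 for vulpeculin (SE 1.37) and 1.95 for ganderin (SE 1.08, limma adjusted p = 0.921 for both), where 0 of 17849 genes were called and 813 had an unadjusted p under 0.05. Without the female that had no reads it was 1.80 (SE 0.82) and 0.85 (SE 0.68, adjusted p = 0.893 for both).

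Of the 22 genes higher in males, 14 lay on unplaced scaffolds, which include the Y-linked genes, and 2 on the X chromosome, so 6 lay on numbered chromosomes. Vulpeculin and ganderin were 2 of these 6, and the other four, named here after their values were seen, were TLN2, ELOVL2, CRTAC1 and LOC118835444. ELOVL2, an elongase of long polyunsaturated fatty acids, was higher by 1.82 (SE 0.40, adjusted p = 0.0183). TLN2, the cytoskeletal protein talin 2, was higher by 1.77 (SE 0.30, adjusted p = 0.000261). CRTAC1, a secreted matrix protein, was higher by 3.04 (SE 0.69, adjusted p = 0.0262). In females CRTAC1 was near the limit of detection, with reads in 8 of 15 and a median of -4.09 log2 CPM. In males it had reads in 27 of 29 and a median of -0.84. The size of its difference thus depends in part on library depth and on the 0.9 of a read used where reads are absent.

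Genes that handle sex steroids and growth hormone were examined because both hormones control urinary lipocalins in mice. Of the 16 genes tested for sex steroid and glucocorticoid handling, ESR1, the estrogen receptor alpha, was called, lower in males by 1.25 (SE 0.29, adjusted p = 0.0311), and the list's median difference was -0.12 against -0.05 over all genes. The difference was of similar size but not called with kit as a covariate (-1.12, adjusted p = 0.155) and without the female that had no reads (-1.12, adjusted p = 0.0835). The 17 genes tested for growth hormone and JAK-STAT signalling had no call and a median of 0.18. Within it CUX2, a transcription factor that is female-biased in the mouse liver, differed by 2.21 toward males (SE 0.56) without passing (adjusted p = 0.072), and the growth hormone receptor GHR by 0.40 (adjusted p = 0.27). STS, the steroid sulfatase, differed by 0.99 (adjusted p = 0.151) and SHBG, the sex hormone carrier of plasma, by -0.59 (adjusted p = 0.341), and these genes too are named after their values were seen.

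The following lists held no called gene in the sex comparison, namely 8 other members of the lipocalin family (median -0.34), 23 liver transcription factors (-0.08), 18 plasma proteins of hepatocytes (0.04), 9 acute phase genes (0.14), 43 genes of the secretory pathway (-0.05), the 14 weaning genes of the study (-0.15) and 3 other genes of the lipocalin cluster (0.02). Of the cell type markers, the summed hepatocyte markers had medians of 40058 CPM in males and 40985 in females. The summed level of 6 bile duct markers was lower in males, with a median of 5.41 (range 2.33 to 22.5) against 14.3 in females (1.52 to 38.4). Its most abundant gene, the keratin KRT19, had medians of 1.72 CPM in males and 8.29 in females and differed by -1.65 (SE 0.52, adjusted p = 0.201). The other markers were not all lower in males. EPCAM, SOX9 and SPP1 differed by -0.38, -0.49 and -0.47, CFTR by -0.08 and KRT7 by 0.25. None of the 6 markers was called and none was at 0 throughout. The part of bile duct cells in the sex difference was not tested. In bulk liver, fewer cells of a type and less RNA per cell cannot be told apart.

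Vulpeculin and ganderin rose and fell together from animal to animal in each combination of sex and kit. Among the 22 NEBNext males, Pearson's r of the log2 levels was 0.90 (Spearman's rho 0.88), and among the 7 NEXTFLEX males it was 0.96 (rho 0.89). Among the 7 NEBNext females r was 0.98 (rho 0.93), and among the 8 NEXTFLEX females 0.99 (rho 0.90). Leaving out the female without reads gave 0.94 (rho 0.86) over the 7 other NEXTFLEX females. Since covariation was among the reasons for taking up the pair, these values are a description and carry no test. All values of a library share its depth and its scaling to the library total, and scaling instead to the 75th percentile of each library gave an r of 0.90 to 0.99 in the 4 combinations.

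**Figure D1:**
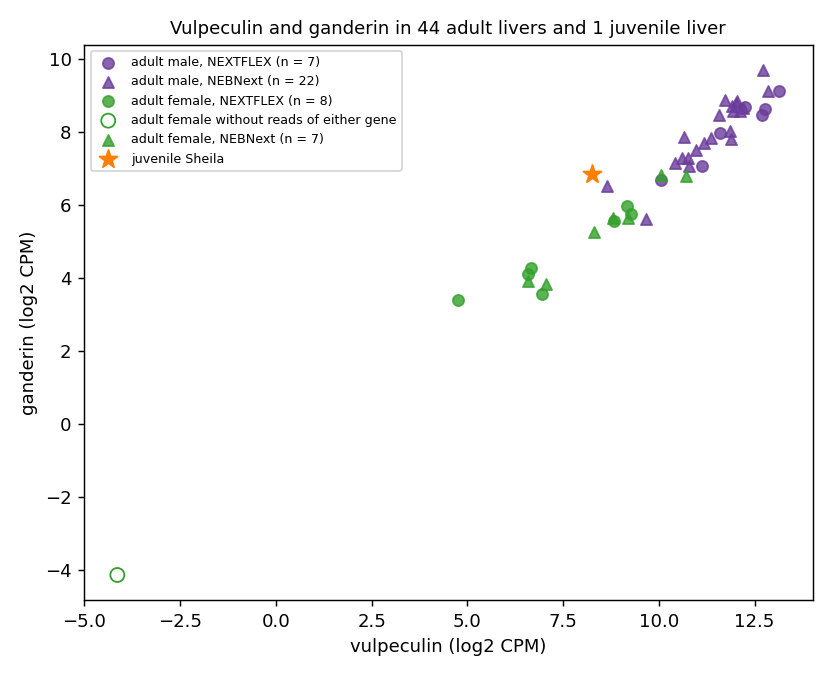
Ganderin (y axis) against vulpeculin (x axis) in log2 CPM, 1 point a liver, with 29 adult males in purple, 15 adult females in green (circles NEXTFLEX, triangles NEBNext) and the juvenile Sheila as an orange star. The adults lie along a single band, males toward the upper right, with the female without reads alone at -4.14 on both axes (open circle) and Sheila above the band of females at 8.26 and 6.86.

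Leaving out the 2 animals farthest from the median level in each combination left r at 0.90 in NEBNext males, 0.88 in NEXTFLEX males, 0.99 in NEBNext females and 0.92 in NEXTFLEX females. Over the same animals rho was 0.85 in NEBNext males, 0.70 in NEXTFLEX males (n = 5), 1.0 in NEBNext females (n = 5) and 0.83 in NEXTFLEX females (n = 6). Leaving out any 1 animal kept r between 0.89 and 0.93 in NEBNext males, and the lowest value in any combination was 0.89. Per log2 unit of vulpeculin, with kit in the fit, ganderin changed by 0.85 (SE 0.08) in males and by 0.74 (SE 0.03) in females, or 0.68 (SE 0.08) without the female that had no reads. In each of the 4 fits of all genes on the level of a member, over 17374 genes in males and 16069 in females, the other member ranked first by its t statistic. The pair was taken up for covariation in these same data, so this rank is a description and no test.

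The difference between the log2 levels of vulpeculin and ganderin within a library was compared between animals as a measure of how far the pair came apart. It ranged in males from 2.11 to 4.21 with a mean of 3.47 ± 0.46 (SD, n = 29) and in the 14 females with reads from 1.35 to 3.93 with a mean of 3.03 ± 0.64. The smallest difference among males was in the Ravensbourne male, the male with the lowest vulpeculin, and the smallest among females was in a Woodside Glen female of June, the next-lowest female after the one without reads. The ranges of the sexes overlapped in part, with the highest values in males.

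With ranks taken within each combination of sex and kit and pooled over the 44 adults, the correlation of the pair was 0.90, which restates the covariation above on the scale used to look for other genes. The middle 95% of the 13951 other genes lay between -0.34 and 0.31 with vulpeculin and between -0.40 and 0.30 with ganderin. The genes next most like vulpeculin were CCDC89 (0.63), which encodes a coiled-coil protein, SORD (0.56), the sorbitol dehydrogenase of fructose synthesis, LOC118837784 (0.55) and LOC118857395 (0.54). Those next most like ganderin were GPC5 (0.59), a cell-surface heparan sulfate proteoglycan, LOC118841175 (0.58), CCDC89 (0.57) and MAB21L2 (0.52). SORD was the only abundant gene of these, at 8.27 to 10.82 in males, and CCDC89 had a male median of 1.55. Within single combinations the values differed, for CCDC89 with vulpeculin from a rho of 0.26 in NEXTFLEX females to 0.86 in NEXTFLEX males.

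Among the genes most unlike the pair, ATP6V0D1, a subunit of the proton pump that acidifies lysosomes, stood at -0.59 with vulpeculin and -0.65 with ganderin, and PKN3, a protein kinase, at -0.56 and -0.59. ESR1 (-0.60) and LOC118851698 (-0.60) were among the 5 lowest for vulpeculin, and PODXL (-0.62), a sialomucin of cell surfaces, and LOC118831167 (-0.59) among those for ganderin. These pooled values did not all hold in each combination. With ganderin, rho was -0.84 in NEBNext males and 0.00 in NEXTFLEX females for ATP6V0D1, and -0.79 in NEBNext females and 0.00 in NEXTFLEX males for PODXL. With vulpeculin, rho for PKN3 was -0.90 in NEXTFLEX females and 0.14 in NEXTFLEX males, while for ESR1 it ran from -0.86 to -0.39. In males the slopes of the 6 bile duct markers on vulpeculin ranged from -0.25 for SOX9 to 0.37 for CFTR with no call, and that of KRT19 was 0.11 (SE 0.30, limma adjusted p = 0.986).

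Beyond the pair itself, few genes followed either member in the limma fits of 1 sex at a time with kit as a covariate. The other member passed the threshold in each fit, but it was chosen for this covariation, so its place in the counts is no test. In males, 4 of 17374 genes passed with vulpeculin (0.023%), of which 3 were not ganderin and had positive slopes, and 2 with ganderin (0.0115%), of which RHBG was not vulpeculin. In females, 1 of 16069 genes passed with each member (0.00622%), and apart from the other member there was none. At an unadjusted p under 0.05 the counts were 1040 and 1432 in males and 438 and 399 in females, or 935 and 1035 in females without the one that had no reads.

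RHBG, an ammonium transporter of the Rh family on chromosome 4 (161095730 to 161114806, minus strand), ranged in males from 3.20 to 6.11 with a median of 4.82, and in females from 2.73 to 5.15 with a median of 4.30. In males it changed by 0.53 per log2 unit of vulpeculin (SE 0.09, adjusted p = 0.00839) and by 0.55 per unit of ganderin (SE 0.10, adjusted p = 0.0438). The call on vulpeculin was lost without kit (slope 0.46, adjusted p = 0.112) and in NEBNext libraries alone (slope 0.44, adjusted p = 0.186). The call on ganderin was lost, at slopes of 0.54 to 0.56, without the filter on low values (adjusted p = 0.0714), without kit (adjusted p = 0.103) and with year as a covariate (adjusted p = 0.06), and at 0.44 in NEBNext libraries alone (adjusted p = 0.405). In females its slopes were -0.04 (SE 0.06) and -0.05 (SE 0.08), and -0.002 (SE 0.14) and 0.02 (SE 0.20) without the one that had no reads. The difference between the sexes was not tested.

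LOC118844146, a gene with no description on chromosome 3 (391232088 to 391255746, minus strand), ranged in males from 3.02 to 6.18 with a median of 5.43 and followed vulpeculin with a slope of 0.64 (SE 0.11, adjusted p = 0.0154). Its slope on ganderin was 0.59 (SE 0.14, adjusted p = 0.248). In females the slope on vulpeculin was 0.00 (SE 0.10), and -0.08 (SE 0.23) without the one that had no reads. The gene lies on the same chromosome as the pair but outside the lipocalin cluster.

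LOC118835444, on chromosome 2 (2688113 to 2689150, minus strand), was near the limit of detection, with reads in 24 of 29 males, at most 248, and in 1 of 15 females. In males it followed vulpeculin with a slope of 1.49 (SE 0.27, adjusted p = 0.0297), and it was also among the genes called higher in males, by 2.93 (SE 0.55, adjusted p = 0.00172). When all values below 0 were set to 0 neither was called, with a slope of 0.11 (adjusted p = 1) and a sex difference of 0.20 (adjusted p = 0.636). Its call on vulpeculin was also lost with a pseudocount of 0.1 (slope 1.04, limma adjusted p = 0.135), without kit (1.39, adjusted p = 0.0631) and with year (1.44, adjusted p = 0.0637). Its sex call was lost in NEBNext libraries alone (2.87, adjusted p = 0.44) and with month and kit as covariates (2.76, adjusted p = 0.0525). The slope of LOC118835444 on ganderin was 1.49 and not called (limma adjusted p = 0.222). In the 22 NEBNext males alone no follower other than ganderin was called, with slopes of 0.66 for LOC118844146 and 1.53 for LOC118835444 (adjusted p = 0.145 for both). Without the 2 males farthest from the median level of vulpeculin, the Ravensbourne and Becks males, LOC118844146 and LOC118835444 had slopes of 0.59 and 1.49 and were no longer called (adjusted p = 0.972 for both).

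**Figure D2:**
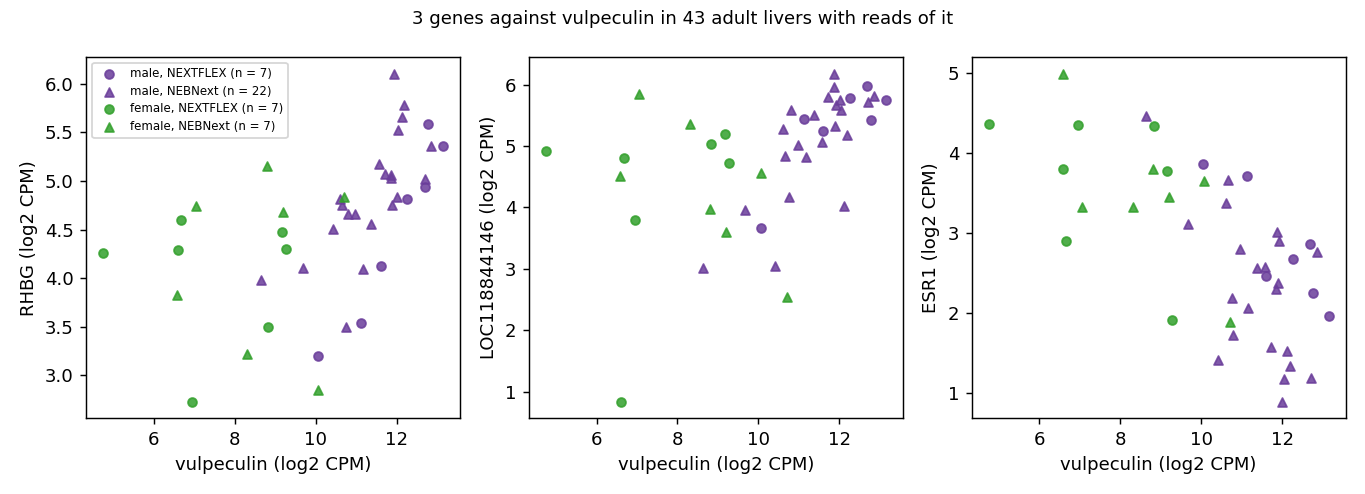
RHBG, LOC118844146 and ESR1 (y axes, log2 CPM) against vulpeculin (x axis, log2 CPM) in the 43 adult livers with reads of vulpeculin, males in purple and females in green, circles NEXTFLEX and triangles NEBNext. In males RHBG and LOC118844146 rise with vulpeculin (slopes of 0.53 and 0.64, called) and ESR1 lies lower where vulpeculin is higher (slope of -0.56, not called), while the females scatter more widely.

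No gene of the lists was called in any of the 4 fits on a member. In males, the 16 genes of steroid handling had a median slope of 0.03 on vulpeculin against -0.01 over all genes, the 17 of growth hormone signalling 0.05, the 23 liver transcription factors -0.03, the 18 plasma proteins -0.02, the 43 of the secretory pathway 0.00 and the 14 weaning genes, which the study chose on these samples, 0.16, with 2 higher and 1 lower at an unadjusted p under 0.05. The steroid genes farthest from 0, named after their values were seen, were SHBG with a slope of -0.53 (SE 0.11, limma adjusted p = 0.133), ESR1 with -0.56 (SE 0.13, adjusted p = 0.192) and STS with 0.41 (SE 0.12, adjusted p = 0.403). The hepatocyte markers had a median slope of -0.10. On ganderin, the 6 endothelial markers had a median slope of -0.24 in males, with 3 lower at an unadjusted p under 0.05, and the 5 stellate cell and fibroblast markers -0.27, with 1 lower, against -0.03 over all genes. On vulpeculin these medians were -0.15 and -0.09 with none under 0.05. The 6 lymphocyte markers had a median of -0.11 on ganderin, with 2 lower at an unadjusted p under 0.05. On vulpeculin their median was -0.10, with 1 lower. The part of lymphocytes in the levels of the pair was not tested. The summed endothelial markers ranged over males from 112.6 to 472 CPM, with LYVE1 the most abundant, the summed stellate cell and fibroblast markers from 18.9 to 206 CPM, with DCN the most abundant, and their part in the levels of the pair was not tested.

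The month of collection, read from the date in each title, ran from March to September, and 29 males and 14 females had a date. Vulpeculin in males had medians of 12.69 in March (5 males, 10.05 to 13.15), 11.37 in April (3 males, 10.97 to 12.71), 12.01 in May (5 males, 10.60 to 12.19), 11.15 in June (6 males, 9.68 to 12.26), 11.59 in July (6 males, 8.64 to 12.85) and 11.72 in August (3 males, 10.66 to 11.90). Ganderin in the same months had medians of 8.48, 7.84, 8.65, 7.43, 8.23 and 8.72, and the 1 male of September had 10.76 and 7.28. Every month with more than 1 male overlapped every other such month in both genes.

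With level and month centred within kit, r was -0.24 for vulpeculin in males (rho -0.28, 2-sided permutation p = 0.221 for r, adjusted p = 0.294 over 2 genes and 2 sexes) and -0.10 for ganderin (rho -0.08, adjusted p = 0.593). Without the 2 males farthest from the median date r was -0.18 for vulpeculin. In females r was 0.47 for vulpeculin (rho 0.24, permutation p = 0.153, adjusted p = 0.294) and 0.46 for ganderin (rho 0.32), and both rested on the female without reads, who was collected in March. Without her r was 0.02 (rho 0.11) and -0.01 (rho 0.19). Within the NEXTFLEX and the NEBNext females r was 0.68 and -0.38 for vulpeculin, opposite in sign, and within the kits in males it was -0.25 and -0.24.

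Centring on the year of collection as well as kit gave a rho of -0.50 for vulpeculin in males (permutation adjusted p = 0.0333) and -0.38 for ganderin (adjusted p = 0.0916), while r was -0.39 for vulpeculin (adjusted p = 0.0916). In females the same centring gave the opposite direction, with an r of 0.66 (rho 0.55) for vulpeculin and 0.64 (rho 0.51) for ganderin (permutation adjusted p = 0.0916 for both r). Month was tied to kit in this collection, with 4 of the 5 March males in NEXTFLEX libraries. In the fit of all genes on month over 43 adults with sex and kit, 0 of 17814 genes were called (0%) and 1044 had an unadjusted p under 0.05. Vulpeculin changed by 0.23 per month (SE 0.21, adjusted p = 0.888) and ganderin by 0.20 (SE 0.16, adjusted p = 0.879), and without the female that had no reads by -0.11 and -0.05. A relation of either gene to month was not detectable with these animals in the main tests.

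**Figure D3:**
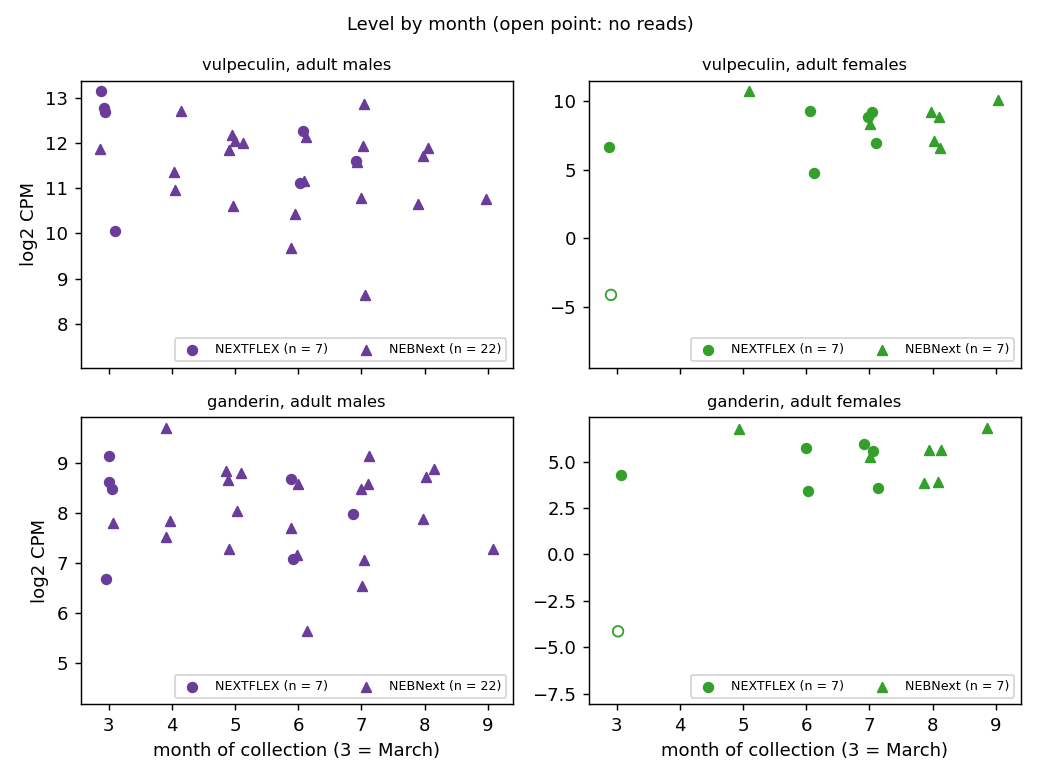
Vulpeculin (top) and ganderin (bottom) in log2 CPM against the month of collection (3 is March) in adult males (left) and females (right), 1 point an animal, moved slightly sideways so that points do not hide each other, with circles for NEXTFLEX and triangles for NEBNext. Months overlap in males, and in females the open circle at -4.14 in March, the animal without reads, stands apart from the rest.

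Among the 7 juveniles, Sheila alone expressed both genes, and she was also the only one that the study describes as out of the pouch. Her liver had 3646 reads of vulpeculin (8.26 log2 CPM) and 1378 of ganderin (6.86), which lay near the adult female median of 8.31 for vulpeculin and slightly above the highest adult female, at 6.83, for ganderin. The difference between her vulpeculin and ganderin, 1.40, was below that of every adult male and lay beside the smallest in adult females, 1.35. Of the other 6 juveniles, 5 had no read of vulpeculin and the Ravensbourne juvenile of September had 4, and none had a read of ganderin in 138 M reads on genes. Relative to the 3-read limit over these 6 libraries, the median adult male held at least 12935-fold and the median adult female at least 1845-fold more ganderin.

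Sheila also differed from the other juveniles in the weaning genes that the study chose on these samples, the galactose (GAL) genes of milk sugar breakdown and the cytochrome P450 (CYP) genes of adult liver oxidation. Subtracting the mean log2 level of the CYP genes from that of the GAL genes gave -4.80 for Sheila, inside the adult range of -6.95 to -3.07. It was 5.18 to 6.06 in the 5 juveniles without reads of vulpeculin, inside the pouch young range of 5.09 to 8.97. The Ravensbourne juvenile, the one with 4 reads, lay between the groups at 2.69. Alpha-fetoprotein, the fetal albumin relative, was 4.62 in Sheila against at most 6.13 in adult females and at least 12.9 in pouch young. Since the study picked the pair by its opposition to this signature, the order is described and not tested.

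**Figure D4:**
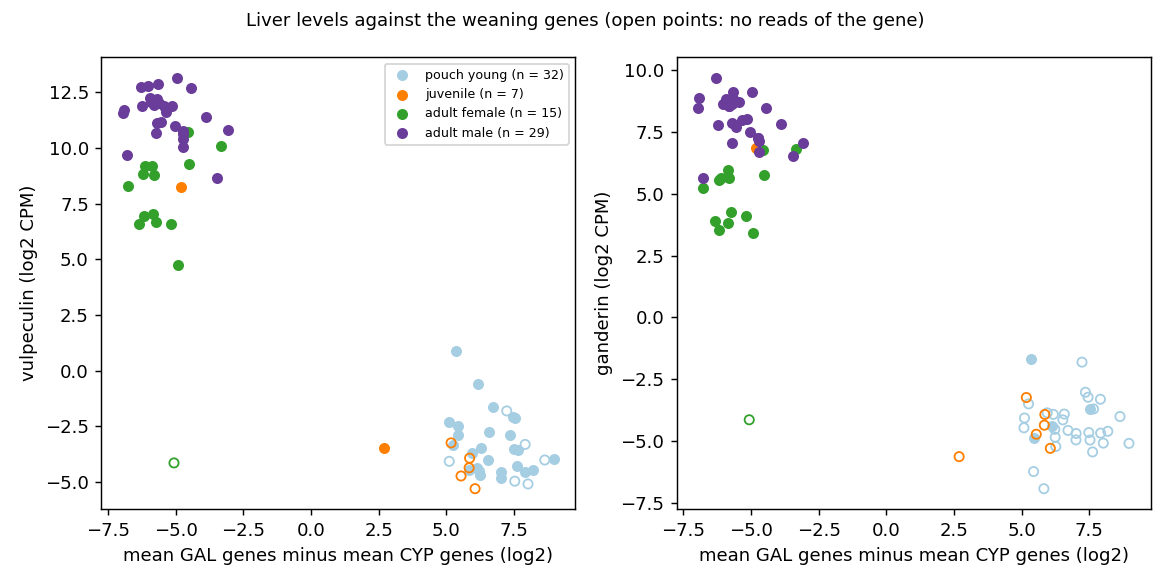
Vulpeculin (left) and ganderin (right) in log2 CPM against the mean GAL minus the mean CYP level (log2) in 83 livers, 1 point a library, coloured by stage and sex, with open points where the gene had no read. Adults lie at the upper left and pouch young at the lower right, Sheila (orange, -4.80) lies among the adults, the Ravensbourne juvenile (orange, 2.69) lies between, and the adult female without reads lies at the lower left.

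The livers of mothers were in the collection for 6 juveniles and 6 pouch young. Sheila exceeded her mother Puku in both genes, with 8.26 against 6.59 for vulpeculin and 6.86 against 4.12 for ganderin. The female without reads was the mother of a juvenile male that had no read of either gene, with a GAL minus CYP level of 5.84 in the young and -5.07 in the mother. The other 4 juveniles without reads had mothers at 7.05 to 9.27 for vulpeculin.

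In pouch young livers the genes were near the limit of detection. Vulpeculin had reads in 25 of 32 libraries, from 1 to 24 and above 3 in 7 of them, and 92 reads in 708 M in all. The highest count, 24, was in a male of 9 dpp that also had the highest ganderin count, 4. Ganderin had reads in 4 of the 32, 7 in all. The median level in adult males was 27298-fold and in adult females 2563-fold the pooled vulpeculin level of pouch young. With 4 of its 7 reads in a single library, ganderin is given no such fold. Counting error alone makes counts this low uncertain.

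Outside the liver ganderin had no read in any of 29 libraries, and vulpeculin had 7 reads in 4 of them. These were Sandy's bladder with 3 reads, small intestine with 2, and skin and spleen with 1 each, while the liver of the same animal had 4 reads of vulpeculin and 1 of ganderin. The 9 kidneys and 8 brains had none of either gene in 69.1 M and 77.95 M reads, and relative to the 3-read limit over the group the median adult male liver held at least 81712-fold more vulpeculin than the kidneys. Kidney markers such as UMOD reached a summed 1322 to 7326 CPM in the kidneys, so these were kidney by their markers. Non-liver tissue other than tongue came from pouch young, whose livers were low as well, so stage and tissue cannot be told apart for them.

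The tongues are the tissue comparison at matched stage and animal. Puku's liver had 1138 reads of vulpeculin and 205 of ganderin, and her tongue had none of either in 10.9 M reads. Sheila's liver had 3646 and 1378, and her tongue had none in 9.33 M. Relative to the 3-read limit, Puku's liver held at least 384-fold more vulpeculin and 69.1-fold more ganderin than her tongue, and Sheila's liver at least 1037-fold and 392-fold more than hers. The summed hepatocyte markers were 1.65 and 0.858 CPM in the tongues, and the keratin KRT4 of squamous epithelium (14074 and 16383) and the muscle creatine kinase CKM (3793 and 1871) were abundant, so the libraries were tongue by their markers. Of 8 markers of salivary or lingual glands, 3 were in the table and were at 0 or 0.107 CPM in sum, and the level of the genes in such glands was not tested. Ordered by level, adult male livers came first and adult female livers next, with the overlap given above, and the libraries of the other groups had 24 reads or fewer of either gene, apart from Sheila's liver.

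**Figure D5:**
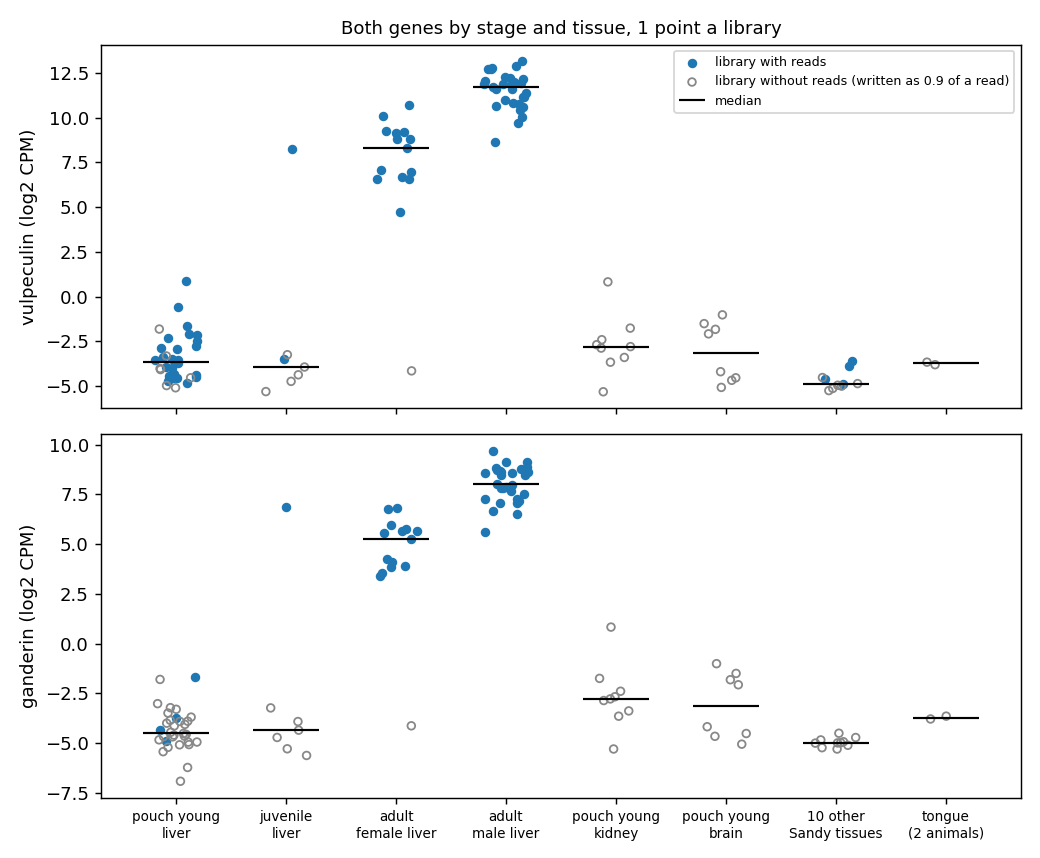
Vulpeculin (top) and ganderin (bottom) in log2 CPM by stage and tissue, 1 point a library moved slightly sideways, with filled points for libraries with reads, open points for libraries without (written as 0.9 of a read, so that their height shows depth only) and a bar at the median. Adult livers other than that of the female without reads stand far above the rest, with medians of 11.72 and 8.04 in males, and Sheila's liver is the 1 juvenile at adult levels.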

How the data were processed

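RNA was sequenced from strand-specific poly(A) libraries of 116 possum tissues made with NEXTFLEX or NEBNext kits. Per the study's methods, reads were trimmed with Trim Galore (0.6.7), mapped with HISAT2 (2.2.1) to mTriVul1.pri and uniquely mapped reads were quantified in SeqMonk. The authors deposited log2 values of reads scaled to the library total (log2 CPM), named RPKM but without division by gene length, in which a gene without reads stands as 0.9 of a read. Whole reads were recovered from these values: of 1589137 values under 1000 reads, 0 were not whole within 0.05. Levels on the log2 scale are as deposited. Folds, limits and summed marker levels are CPM of the reads on genes, whose total the authors' denominator exceeded by a factor of 1.04 to 1.65 (median 1.07). The limit for a group without reads is 3 reads over the group, and limits cover counting error only.

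Tests were run with limma (3.58.1, R 4.3.3) on the log2 values of genes with reads in at least 7 libraries of the fit, with Benjamini-Hochberg adjustment and a threshold of 0.05, and for sex a log2 difference of at least 1. A fold change near 0 reads depends on this 0.9. Month was tested by 2-sided permutation within kit (100000 resamples, exact within a kit of fewer than 10) in Python 3.11.15 with scipy 1.17.1. In tests on simulated data for the sex comparison over 17849 genes, 79 of 100 genes changed by 1.5 and 100 of 100 changed by 3 on the log2 scale were recovered, with 8 false calls, and for genes following a level in males 200 of 200 with a slope of 1.5 SD were recovered with 10 false calls.

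Genes were named where they belonged to a list and passed the fit, or were among the 5 highest and 5 lowest by likeness, and others are said to be named after their values were seen. Some genes that this rule names are not reported here. The members, lists and tests were chosen with earlier results of these data known. Alternatives were another scaling, pseudocount (0.1) or filter, kit, year or month as covariates, each kit alone, and animals left out. The 2 libraries whose labels disagree on the tissue and the 2 livers that the study removed entered no comparison.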

Additional observations from a re-analysis of the deposited data

Results flagged for a closer look

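In 13 combinations of a set of 4 to 10 libraries and a quantity, the highest and lowest values were compared with the rest. Chance sets a library apart in about 1 of 20 such combinations, a rate that does not hold for values written for 0 reads. The combinations shared libraries and were not independent. The Woodside Glen female of March stood apart among the NEXTFLEX females for vulpeculin and for ganderin, at -4.14 log2 CPM for both, which is the value written for 0 reads. Her place is a description and no test, since a female with almost no reads of vulpeculin was already known from the study's source data. Among the 7 juvenile livers Sheila had the highest vulpeculin (8.26 log2 CPM) and ganderin (6.86) and the lowest GAL minus CYP level (-4.80) and alpha-fetoprotein (4.62). These juvenile values are a description and no test, since the onset in juveniles was among the reasons for the choice of the genes and 5 of the 7 vulpeculin and 6 of the 7 ganderin values stand for no reads and follow library depth.

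A library left out of the comparisons also held vulpeculin. It is titled liver but labelled kidney, comes from a female pouch young of 72 dpp and had 8 reads of vulpeculin in 6.57 M reads on genes, with summed hepatocyte markers of 66035 and kidney markers of 0.609 CPM. Its partner, titled kidney but labelled liver, had no read of either gene, with hepatocyte markers of 195 and kidney markers of 3803.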

How the results depend on the processing

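Of 303 values recomputed for 39 results, 248 kept their direction and their side of the threshold or moved little, and the cause of the other changes was not tested. The count of genes called between the sexes, 40, was 25 with values below 0 set to 0, 17 in NEXTFLEX and 22 in NEBNext libraries alone, and in the former vulpeculin (5.94) and ganderin (4.53) were not called. The genes following vulpeculin in males, 4, were 2 without kit as a covariate, 1 in NEBNext libraries alone and 2 without the 2 males farthest from the median, and in females 2 instead of 1 without kit. The genes following ganderin in males, 2, were 1 without the filter, without kit, in NEBNext libraries alone and with year as a covariate, and 3, 1 of them with a negative slope, with values below 0 set to 0 and without the 2 farthest males. These counts include the other member.

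The genes related to month were 1 instead of 0 without kit. Without the female that had no reads, the change per month was -0.11 for vulpeculin and -0.049 for ganderin. Centred on kit and year, rho with month for vulpeculin in males was -0.50 and passed the threshold. In females, vulpeculin turned to an r of -0.38 (rho -0.12) in NEBNext libraries alone and -0.16 (rho -0.071) without the 2 farthest dates. Ganderin turned to an r of -0.27 (rho 0.12) and -0.15 (rho 0.19) in the same settings. Without the female that had no reads its r was -0.013 (rho 0.19), so its rho kept a positive sign in each. Spearman's rho of the pair was 0.93 in NEBNext females, 0.88 in NEBNext males, 0.90 in NEXTFLEX females and 0.89 in NEXTFLEX males, and without the 2 farthest animals r was 0.99 in NEBNext females, 0.92 in NEXTFLEX females and 0.88 in NEXTFLEX males. The covariates of month and kit, the test of sex by kit and the omission of the farthest dates were chosen after seeing the data. No paired analysis was run. The adult livers compared all came from different animals, and their replicate numbers follow accession order. Some males and females share a date and site in their titles, but a block on date or site was not fitted. Mothers and young, and tissues of the same animal, were set side by side without a test. Below about 3 reads depth limits what can be seen.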

Other observations

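Levels also differed among collection sites. The sites differed in season and kit as well, and differences between sites were not tested. Vulpeculin in males had a median of 12.03 log2 CPM at Pig Farm (6 males, 11.17 to 12.19), 11.90 at Woodside Glen (6 males, 10.66 to 13.15) and 11.58 at South Dale Rd (11 males, 10.05 to 12.85), which overlapped. The 2 Corstorphine males had 10.42 and 10.79, the Becks male 9.68 and the Ravensbourne male 8.64. By coat colour, vulpeculin had medians of 10.97 in 7 black, 11.86 in 17 grey and 12.05 in 5 red males, with ranges that overlapped, and ganderin 7.52, 8.48 and 8.62.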
